A study of Mus musculus with 11 samples.

Results

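The genes described here are 10 members of the Notch signalling pathway, taken from the deposited count table by gene symbol: 5 ligand genes (Dll1, Dll3, Dll4, Jag1 and Jag2), 2 receptor genes (Notch1 and Notch2) and 3 target genes (Hes1, Hey1 and Nrarp). All 10 were among the 24421 rows of the table, and all 10 were among the 13916 genes that had enough counts to be tested. The messenger RNA came from lung epithelial cells of mouse embryos at stage E17.5, which had been held on magnetic beads by their surface protein EpCAM. There were 6 libraries labelled Control and 5 labelled PRDM3/16KO, here called knockout. In the knockout, floxed alleles of Prdm3 (now named Mecom) and Prdm16 were recombined by ShhCre, a Cre recombinase under the control of the Shh gene, which is active in lung epithelium. Fathers were Prdm3fl/fl, Prdm16fl/wt and ShhCre+, and mothers were Prdm3fl/fl and Prdm16fl/fl, so every embryo of this cross carried floxed Prdm3 alleles. The labels call the comparison animals Control and wild type and do not say which of them carried Cre.

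Notch signalling passes between touching cells. A Delta-like or Jagged ligand on one cell binds a Notch receptor on its neighbour, the receptor is cut by ADAM proteases and then by gamma-secretase, and the freed intracellular part joins the DNA-binding protein RBPJ and a Mastermind coactivator to switch on target genes such as those of the Hes and Hey families. In the developing airway, signalling of this kind is known to hold back the neuroendocrine fate and to favour the secretory fate, while cells that become neuroendocrine make Delta-like ligands.

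Counts summed to between 6065906 and 7869787 per library. Levels are given as CPM, the usual count relative to library size, after TMM scaling (trimmed mean of M values), and changes as the log2 fold change of knockout over Control from edgeR's quasi-likelihood test, with Benjamini-Hochberg adjustment over all tested genes and a threshold of 0.05. The labels do not state that each library is its own animal. The p-values therefore speak of how far these 11 libraries spread, and some of that spread may be technical. Y-linked transcripts summed to 203 to 231 CPM in 4 Control libraries and 1 knockout library and to at most 5.18 CPM in the other 2 Control and 4 knockout libraries, so neither group was made only of repeats of 1 animal. Correlations of log2 CPM between libraries were 0.96 to 0.991 within groups and 0.915 to 0.94 between groups. The targeted genes were a weak check of the labels, since the counts cover whole genes and the deleted exons are not named: Prdm16 was at 202 ± 21.9 CPM (SD, n = 6) among Control libraries against 166 ± 12.2 CPM (SD, n = 5) among knockout ones, and Mecom was higher in the knockout, at 219 ± 9.99 and 340 ± 16.0 CPM. Epcam, the selection marker, was at 252 ± 25.3 and 261 ± 10.8 CPM.

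Among the 10 genes, 2 ligand genes rose (Dll1 and Dll3), 1 ligand gene fell (Jag1), 1 target gene fell (Nrarp), and 6 did not pass the test, which were Dll4, Jag2, Notch1, Notch2, Hes1 and Hey1. By role, 3 of 5 ligand genes, 0 of 2 receptor genes and 1 of 3 target genes passed edgeR's test. Across all genes tested 42.9% passed, with 21.1% higher and 21.8% lower, so the share of these 10 genes that passed was close to that of the whole profile. Library ranges did not overlap for 4 of the 10, which were the same genes that passed, against 28.5% of all genes tested. The median log2 fold change was 0.04 for the ligand genes, 0.01 for the receptor genes and -0.20 for the target genes, and 0.0023 over all genes tested.

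The promoters of the genes that changed are shown first, because Dll1 and Dll3, the pair that rose, share a hexamer with each other and with Jag1. Promoter sequences were taken from RefSeq (build GRCm38.p6), which matched 8 of the 10 genes by symbol. Hes1 and Hey1 had no match, so their promoters were not searched. Each run below is the 250 bases before the start of the RefSeq transcript, from 5′ to 3′ on the strand of the gene. That start can differ from the end of the GENCODE locus given further on: the Dll3 run lies inside its locus, and the Jag1 run partly so. Capitals mark CAGCTG, an E-box, the kind of motif that basic helix-loop-helix factors are known to bind, in Dll1, Dll3 and Jag1. In Nrarp capitals mark CACNAG, the N-box known as a binding motif of HES factors, on either strand.
Dll1 (chr17:15376933-15377182, minus strand): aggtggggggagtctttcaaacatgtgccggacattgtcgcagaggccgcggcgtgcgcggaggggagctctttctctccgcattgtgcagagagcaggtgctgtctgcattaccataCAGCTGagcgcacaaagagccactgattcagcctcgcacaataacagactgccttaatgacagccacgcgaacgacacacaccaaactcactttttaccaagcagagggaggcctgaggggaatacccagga
Dll3 (chr7:28301786-28302035, minus strand): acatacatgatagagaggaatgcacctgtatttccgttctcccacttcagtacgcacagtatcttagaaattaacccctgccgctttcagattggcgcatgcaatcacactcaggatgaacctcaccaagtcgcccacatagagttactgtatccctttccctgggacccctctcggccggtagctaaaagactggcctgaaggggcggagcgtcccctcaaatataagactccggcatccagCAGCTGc
Jag1 (chr2:137116521-137116770, minus strand): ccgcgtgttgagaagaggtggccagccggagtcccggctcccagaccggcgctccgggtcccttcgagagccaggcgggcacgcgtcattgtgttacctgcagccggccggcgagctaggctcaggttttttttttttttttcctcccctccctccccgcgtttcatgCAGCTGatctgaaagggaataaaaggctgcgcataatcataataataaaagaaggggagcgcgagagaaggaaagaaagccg
Nrarp (chr2:25180508-25180757, plus strand): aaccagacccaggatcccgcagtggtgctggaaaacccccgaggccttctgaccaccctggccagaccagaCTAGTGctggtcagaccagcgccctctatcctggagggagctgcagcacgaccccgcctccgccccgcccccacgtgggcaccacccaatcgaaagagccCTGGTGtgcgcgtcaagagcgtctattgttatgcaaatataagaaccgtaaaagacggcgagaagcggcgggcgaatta

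The CAGCTG hexamer began at position -132 in Dll1, -7 in Dll3 and -82 in Jag1, where -1 is the last base before the start. Dll1 has another listed start site, whose window held none. Over windows from 250 bases before to 50 bases after the start, CAGCTG, which reads the same on both strands, stood in 16.3% of all 32851 promoters. In that longer window Nrarp held it as well, within the transcribed part, and Dll4, Jag2, Notch1 and Notch2 did not. The hexamer therefore stood in promoters of genes that rose (Dll1 and Dll3) and of genes that fell (Jag1 and Nrarp). The N-box CACNAG, searched on both strands, stood in 42.5% of promoters and in those of 5 of the 8 matched genes, at 3 places in Notch1, 2 in Nrarp and 1 each in Notch2, Dll4 and Dll1. The RBPJ core TGGGAA, also searched on both strands, stood in 25.6% of promoters and in no window of the 8 matched genes. Nrarp was the only target gene among them. The longer RBPJ motif GTGGGAA, which contains that core, stood in 6.38% of promoters. A match describes letters in this window and is not a measured binding site.

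Dll1 encodes a Delta-like ligand that activates Notch receptors on neighbouring cells. Its locus is chromosome 17, 15367354 to 15376872, on the minus strand (mm10, as for all positions below). Control libraries 1 to 6 held 5.15, 3.32, 3.52, 3.64, 4.41 and 4.94 CPM of Dll1, while knockout libraries 1 to 5 held 13.7, 14.3, 11.3, 9.52 and 16.2 CPM. Every knockout library was above every Control library. Dll1 rose 3.11-fold, from 4.16 ± 0.779 to 13.0 ± 2.61 CPM (log2 fold change 1.64, SE 0.165; edgeR, adjusted p = 1.16e-06). In this annotation 1 long noncoding gene on the opposite strand shares exon bases with Dll1, and whether the counting used strand is not given in the sources used here.

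Dll3 encodes a Delta-like protein that is known to stay mostly inside the cell and to dampen Notch signalling in the cell that makes it. Its locus is chromosome 7, 28293553 to 28302238, on the minus strand. Its counts in Control libraries were 2, 3, 3, 5, 7 and 3, and in knockout libraries 43, 62, 48, 67 and 56. It was thus nearly absent from Control libraries and low but measured in every knockout library. In CPM it went from 0.575 ± 0.269 to 7.10 ± 1.26, a 12.1-fold rise (log2 fold change 3.59, SE 0.25; edgeR, adjusted p = 2.03e-08), the largest change of the 10 genes. Its Control counts summed to 23, the fewest of any member.

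Transcripts of neuroendocrine cells were higher in the same libraries. Of 17 markers on a list of such genes, 13 rose, 0 fell, 2 did not pass and 2 were below the filter on low counts. Over all genes tested, 21.1% rose and 21.8% fell. The neuroendocrine list's summed level was 119 to 175 CPM in Control and 911 to 1105 CPM in knockout libraries. Calca, a peptide gene of these cells, was at 11 ± 5.42 CPM in Control and 366 ± 33.8 CPM in the knockout (log2 fold change 5.06; edgeR, adjusted p = 1.83e-09). Neurod1, another marker of the list, was at 0 in all 11 libraries. More cells of this type and more RNA per cell cannot be told apart in bulk samples. Lists of other airway cells held calls too. Of 5 basal markers, 4 of them tested, 3 rose and 0 fell. Of 8 airway secretory markers 2 rose and 2 fell, and of 9 multiciliated markers, 8 of them tested, 2 rose and 1 fell. The part of any of these cell types in the Dll1 and Dll3 values was not tested.

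Dll4, a Delta-like ligand best known from the endothelium of growing vessels, did not pass the test. It lies on chromosome 2 from 119325784 to 119335962 (plus strand). In Control, Dll4 stood at 15.6, 19.5, 17.4, 13.9, 17.6 and 28.9 CPM, while the knockout gave 18.8, 17.9, 15.6, 15.8 and 16.8 CPM. The knockout values lay inside the Control range, which was wide because of Control library 6. The log2 fold change was -0.16 (SE 0.156, 95% interval -0.51 to 0.19; edgeR, adjusted p = 0.437), and it was 0.0086 without Control library 6 (edgeR, adjusted p = 0.954). Other alternatives moved it away from 0 without a call, to -0.50 among libraries low in Y-linked transcripts (edgeR, adjusted p = 0.0522), -0.44 with mesenchymal markers as a covariate (edgeR, adjusted p = 0.198), -0.30 with Y-linked transcripts as a covariate (edgeR, adjusted p = 0.0731) and 0.68 with mesothelial markers (edgeR, adjusted p = 0.246). In this annotation 214 of its 3852 exon bases are shared with Gm14207 on the opposite strand. How reads there were counted is not given in the sources used here.

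Jag1, the Jagged ligand whose loss causes bile duct and heart defects, was the most abundant ligand gene and fell. Its locus is chromosome 2, 137081456 to 137116644, on the minus strand. The Control libraries held 94.5, 86.7, 87.6, 104, 81.3 and 83.1 CPM of Jag1, against 78.6, 61.2, 71.8, 68.7 and 70.6 CPM in the knockout. The ranges lay close to each other without overlap, with knockout library 1 just below Control library 5. The mean was 89.6 ± 8.49 CPM in Control and 70.2 ± 6.26 CPM in the knockout (log2 fold change -0.35, SE 0.0782; edgeR, adjusted p = 0.00203). This call was lost with endothelial markers as a covariate (-0.22; edgeR, adjusted p = 0.207), with mesothelial markers as a covariate (-0.63; edgeR, adjusted p = 0.0511) and among the libraries low in Y-linked transcripts, only 2 Control and 4 knockout ones (-0.27; edgeR, adjusted p = 0.0772). Over all alternatives the adjusted p of Jag1 by edgeR, DESeq2 or limma ran from 7.2e-05 to 0.207. Mesothelial markers, as mean log2 CPM, were at 3.2 to 3.9 in Control and 4.7 to 5.2 in the knockout. With no overlap, that covariate can hardly be told apart from the genotype, and calls lost with it here and below are hard to read. Mesenchymal markers overlapped little, at 3.9 to 4.6 and 4.4 to 5.2.

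Jag2, the other Jagged ligand, has its locus on the minus strand of chromosome 12, 112907819 to 112929776. It stood at 39.3 to 59.1 CPM in Control, with a median of 53.6, and at 46.8 to 55.6 CPM in the knockout, with a median of 53.3. Its log2 fold change was 0.04 (SE 0.0924, 95% interval -0.17 to 0.25; edgeR, adjusted p = 0.773), and the lowest value was that of Control library 6.

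**Figure D1:**
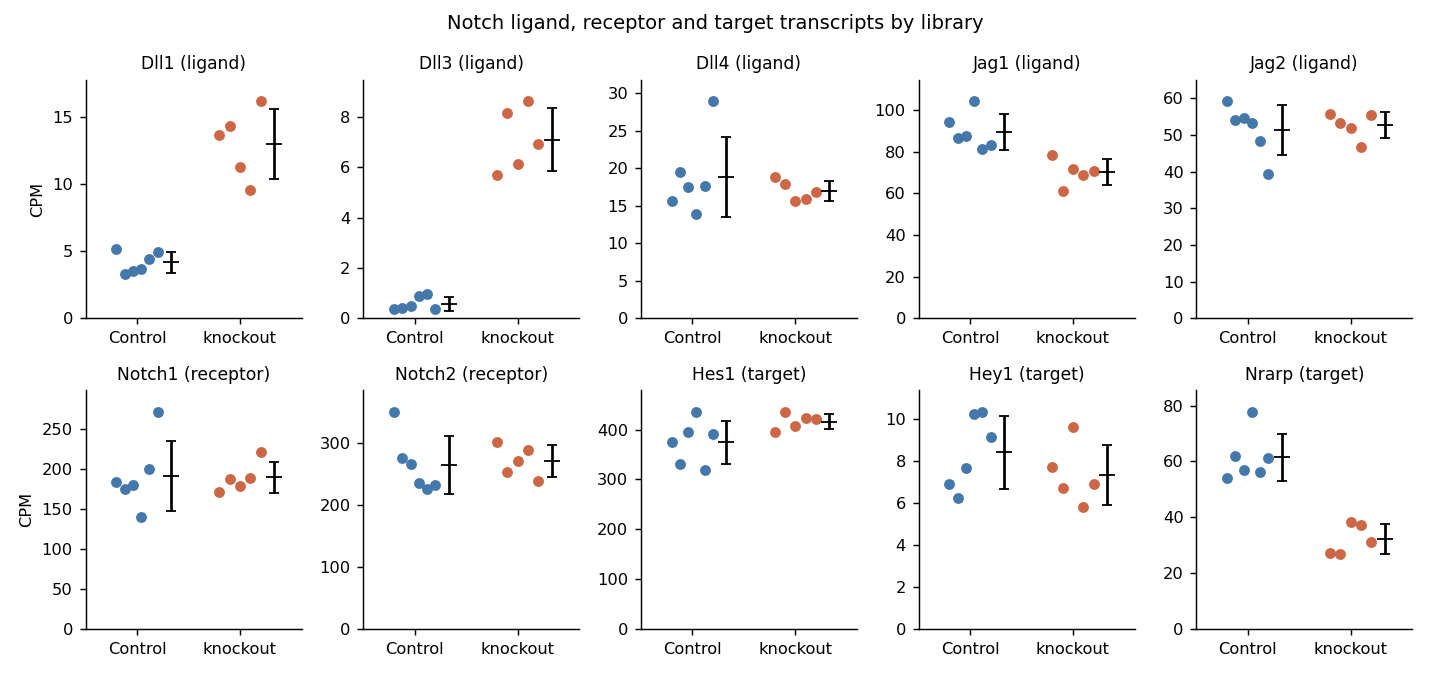
Level of each of the 10 Notch genes in CPM (vertical axis, from 0, its own scale in each panel) in the 6 Control (blue) and 5 knockout (orange) libraries. Points are libraries in the order of their numbers, and bars are the mean ± SD. Points of the groups do not overlap for Dll1, Dll3, Jag1 and Nrarp.

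The receptor genes did not pass the test. Notch1 lies on chromosome 2 from 26457903 to 26516663 (minus strand) and stood at 184, 175, 180, 140, 199 and 271 CPM in Control, against 171, 187, 179, 188 and 221 CPM in the knockout. Its lowest and its highest value were both in Control, in libraries 4 and 6. The means were 191 ± 43.7 and 189 ± 19.2 CPM, with a log2 fold change of -0.02 (SE 0.132, 95% interval -0.32 to 0.28; edgeR, adjusted p = 0.934). Notch2 lies on chromosome 3 from 98013527 to 98150361 (plus strand) and stood at 349, 274, 266, 235, 225 and 231 CPM in Control, against 301, 252, 270, 288 and 238 CPM in the knockout. The groups overlapped over most of their ranges, and Control library 1 was the highest. The means were 263 ± 46.3 and 270 ± 25.6 CPM, with a log2 fold change of 0.03 (SE 0.107, 95% interval -0.21 to 0.28; edgeR, adjusted p = 0.824). Both receptor genes share exon bases with other genes of the annotation, which are on the opposite strand at Notch1 and on the same strand at Notch2.

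Within Control, Notch1 and Dll4 were highest in library 6, where proliferation genes were highest too. The summed level of 10 proliferation genes was 326, 387, 356, 210, 599 and 845 CPM in Control libraries 1 to 6 and 304 to 418 CPM in knockout libraries. Control library 4, lowest for these genes, was also lowest for Notch1 and Dll4. Control library 5 was the second highest for proliferation genes and, at 17.6 CPM, in the middle of the group for Dll4. With the mean of the proliferation genes as a covariate, added after seeing the data, the log2 fold change was 0.10 for Notch1 (edgeR, adjusted p = 0.225) and -0.03 for Dll4 (edgeR, adjusted p = 0.86).

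**Figure D2:**
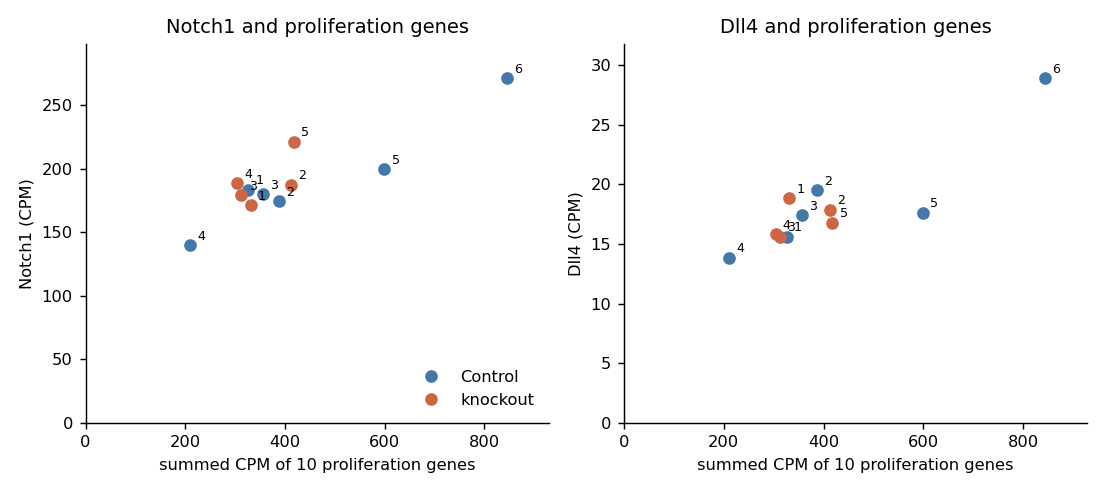
Notch1 (left) and Dll4 (right) in CPM against the summed CPM of 10 proliferation genes, 1 point for each of the 6 Control (blue) and 5 knockout (orange) libraries, numbered. Control library 6 stands at the upper right of both panels, at 845 CPM of proliferation genes, and Control library 4 at the lower left, at 210 CPM.

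Among the target genes, Nrarp fell and Hes1 and Hey1 did not pass. Nrarp encodes a small ankyrin-repeat protein that Notch switches on and that limits the Notch signal in return. It lies on chromosome 2 from 25180758 to 25183339 (plus strand). Nrarp stood at 54.2, 62.0, 57.1, 77.7, 56.3 and 61.4 CPM in Control, while the knockout gave 27.3, 26.7, 38.4, 37.3 and 31.2 CPM. Every knockout library was below every Control library. Mean Nrarp was 61.4 ± 8.5 CPM in Control and 32.2 ± 5.48 CPM in the knockout (log2 fold change -0.93, SE 0.116; edgeR, adjusted p = 1.07e-05). It was called under all 27 alternatives, with log2 fold changes from -1.03 to -0.82. An antisense gene covers most of its exon bases, and without a stated strand setting reads of the pair cannot be told apart.

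Hes1, a repressor of neuroendocrine differentiation and the most widely used Notch target, lies on chromosome 16 from 30064384 to 30067796 (plus strand). Its levels were 376, 331, 395, 435, 320 and 391 CPM in Control and 394, 434, 407, 424 and 421 CPM in the knockout. The knockout libraries lay in the upper part of the Control range. The means were 375 ± 43.0 and 416 ± 15.5 CPM, with a log2 fold change of 0.15 (SE 0.0792, 95% interval -0.03 to 0.33; edgeR, adjusted p = 0.137). Hes1 was called higher by edgeR with library-size scaling alone (0.26, adjusted p = 0.0105), with upper-quartile scaling (0.21, adjusted p = 0.0368) and without Control library 4 (0.20, adjusted p = 0.0321). Library-size scaling alone moved the median of all genes from 0.0023 to 0.11.

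Hey1, a related repressor also known from vessels, lies on chromosome 3 from 8663359 to 8667256 (minus strand) and was low. It stood at 6.93, 6.22, 7.68, 10.2, 10.3 and 9.14 CPM in Control and at 7.69, 6.70, 9.60, 5.79 and 6.91 CPM in the knockout. The groups overlapped. The log2 fold change was -0.20 (SE 0.167, 95% interval -0.58 to 0.18; edgeR, adjusted p = 0.362).

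**Figure D3:**
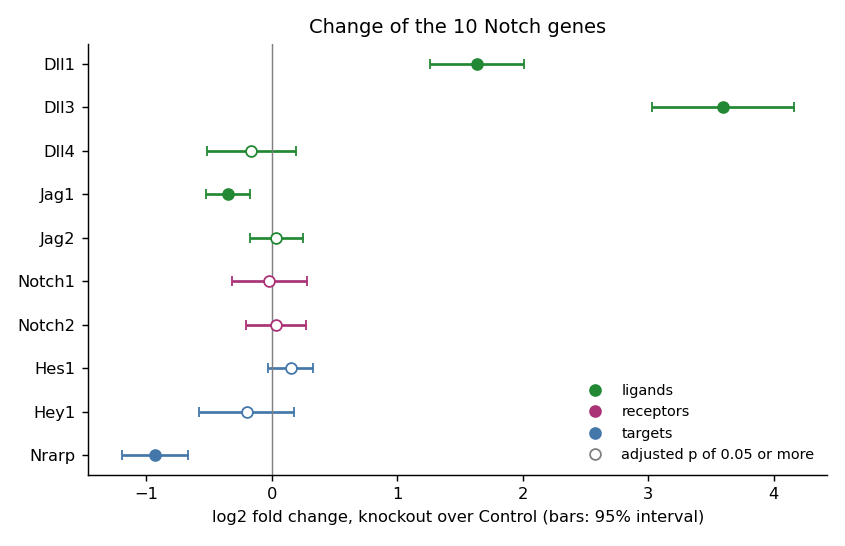
Log2 fold change of knockout over Control (horizontal axis) for the 10 genes, with ligands in green, receptors in purple and targets in blue. Bars are 95% intervals, and filled points passed the adjusted p threshold of 0.05. Dll3 (3.59) and Dll1 (1.64) lie to the right of 0 and Jag1 (-0.35) and Nrarp (-0.93) to its left.

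Whether genes of the same role moved by different amounts was tested on the log2 ratio of their counts within each library, which does not depend on scaling between libraries. Across 7 such ratios, exact two-sided permutation tests over all ways of dividing the 11 libraries into 6 and 5 could not give a p below 0.00433. The ratio of Dll1 to Jag1 went from -4.42 ± 0.316 (SD, n = 6) to -2.45 ± 0.332 (SD, n = 5), a difference of 1.97 (exact permutation p = 0.00433, adjusted p = 0.0101). Every knockout library was already above every Control library for Dll1 and below every one for Jag1. That ratio therefore had to separate the groups, and its p adds nothing to the calls of these genes. The ratio of Jag2 to Jag1 rose by 0.39 (exact permutation p = 0.00433, adjusted p = 0.0101), and the libraries of the groups did not overlap. The ratio of Dll4 to Jag1 differed by 0.24 (exact permutation p = 0.303, adjusted p = 0.354), and without Control library 6 by 0.39 (exact permutation p = 0.0159, adjusted p = 0.0222).

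Between the receptors the ratio of Notch2 to Notch1 differed by 0.04 (exact permutation p = 0.892, adjusted p = 0.892). Between the targets, the ratio of Hes1 to Nrarp rose from 2.61 ± 0.164 to 3.71 ± 0.253, a difference of 1.1 (exact permutation p = 0.00433, adjusted p = 0.0101). The gap between the Nrarp ranges of the groups was wider than the spread of Hes1 could make up for. This ratio therefore also had to separate the groups, and its p adds nothing to the call of Nrarp. The ratio of Hey1 to Nrarp differed by 0.74, with overlapping libraries (exact permutation p = 0.00866, adjusted p = 0.0152), and that of Hes1 to Hey1 by 0.35 (exact permutation p = 0.108, adjusted p = 0.152). Nrarp thus fell relative to both other targets, though only the Hey1 ratio was free to come out otherwise.

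To set levels of different genes side by side, CPM was divided by the length of each gene's merged exons in kilobases. On this scale, in Control, Hes1 was highest at 184 ± 21.1, followed by Notch2 (24.4 ± 4.29), Nrarp (23.8 ± 3.29), Jag1 (15.4 ± 1.46), Notch1 (13.4 ± 3.07), Jag2 (7.38 ± 0.986), Dll4 (4.89 ± 1.37), Hey1 (2.58 ± 0.531), Dll1 (0.987 ± 0.185) and Dll3 (0.202 ± 0.0943). Neighbours in this order whose library ranges overlapped were Notch2 with Nrarp, Jag1 with Notch1, and Jag2 with Dll4. In the knockout Nrarp stood in the fourth place at 12.5 ± 2.12, between Notch1 (13.3 ± 1.35) and Jag1 (12 ± 1.07), and these neighbours overlapped. Dll1 (3.08 ± 0.619), Dll3 (2.49 ± 0.440) and Hey1 (2.25 ± 0.440) made up the end of the order and overlapped as neighbours, so Hey1 was the lowest member there instead of Dll3.

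The make-up of the ligand transcripts differed between the groups. Of the summed CPM per kilobase of the 5 ligand genes, Jag1 held 53.2% ± 3.2 (SD, n = 6) in Control, against 40.7% ± 2.9 (SD, n = 5) in the knockout. Dll1 and Dll3 held 3.43% ± 0.643 and 0.705% ± 0.346 in Control, and 10.4% ± 1.77 and 8.49% ± 1.82 in the knockout. Jag2 held 25.6% ± 3.11 and 25.5% ± 0.898, and Dll4 17.0% ± 4.97 and 14.9% ± 0.799. Even in the knockout, the Jagged genes remained the larger part of the ligand transcripts. Between the receptors Notch2 held 64.5% ± 6.86 of their summed level in Control and 65.2% ± 4.21 in the knockout. Over all 4 receptor genes Notch3 held 15.5% ± 2.23 in Control and 21% ± 0.869 in the knockout, and Notch4 held 1.16% ± 0.15 and 2.34% ± 0.372, both without overlap between the groups.

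**Figure D4:**
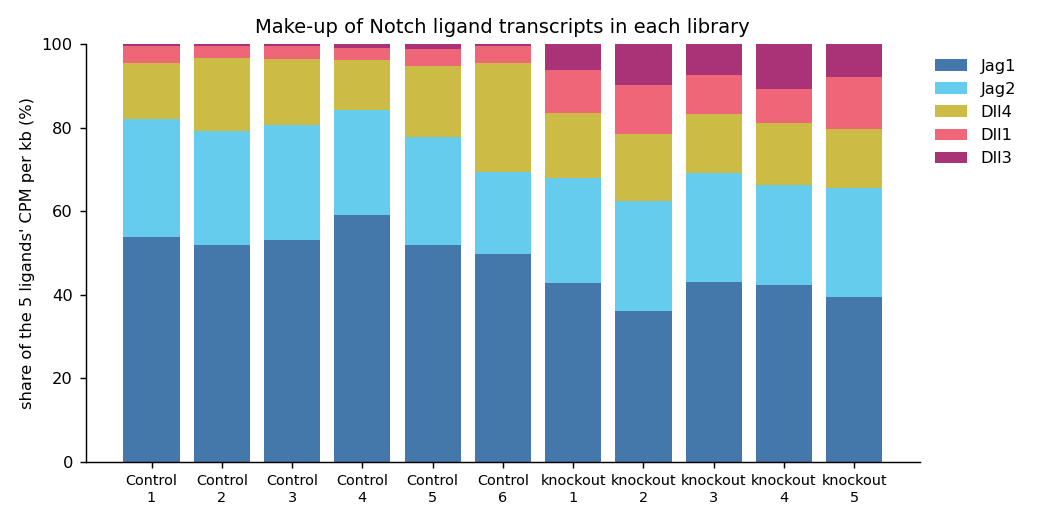
Share of each ligand gene in the summed CPM per kilobase of the 5 ligand genes (vertical axis, percent), stacked for each of the 6 Control and 5 knockout libraries. Dll1 and Dll3, at the top of each bar, are wider in every knockout library, and Jag1, at the bottom, is narrower.

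Other genes of the pathway were read from 7 lists holding 49 genes, of which 47 had enough counts to be tested. By edgeR 17 rose, 11 fell and 19 did not pass, with a median log2 fold change of 0.03, beside 21.1% higher and 21.8% lower over all genes tested. With mesenchymal markers as a covariate 6 rose and 7 fell. Calls fell over the whole profile in that fit too, to 1491 higher and 1349 lower of 13916 genes, from 2936 and 3037. Among other receptors and ligands, 3 of 4 rose and 1 fell. Notch4, a receptor known from endothelium, rose from 4.30 ± 1.04 to 9.46 ± 1.58 CPM (1.13; edgeR, adjusted p = 6.44e-05), and Notch3, a receptor known from the muscle cells around vessels, from 57.1 ± 11.7 to 85.1 ± 3.64 CPM (0.57; edgeR, adjusted p = 0.000642). The Notch4 call was lost with mesothelial markers as a covariate (1.37; edgeR, adjusted p = 0.0797). The Notch3 call was lost with mesenchymal markers as a covariate (0.34; edgeR, adjusted p = 0.139) and among libraries low in Y-linked transcripts (0.40; edgeR, adjusted p = 0.105). Dlk1, a Delta-like protein that lacks the receptor-binding domain of the true ligands and is imprinted, fell from 3469 ± 539 to 1087 ± 165 CPM (-1.67; edgeR, adjusted p = 5.03e-08).

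The Fringe enzymes add sugars to Notch and tune which ligands it answers to. Of the 5 glycosyltransferase genes 3 rose and 1 fell, beside 21.1% higher and 21.8% lower over all genes tested. The same shares stand beside the counts of the further lists, each of which holds few genes. Mfng rose from 0.733 ± 0.351 to 5.81 ± 0.713 CPM (2.98; edgeR, adjusted p = 3.26e-07), from 29 counts over the Control libraries, Rfng fell from 39.8 ± 5.33 to 27.0 ± 2.47 CPM (-0.56; edgeR, adjusted p = 0.000283), and Lfng stood at 28.6 ± 3.4 and 30.6 ± 2.73 CPM (0.10; edgeR, adjusted p = 0.395). The Rfng call was lost with the mesothelial covariate (-0.42; edgeR, adjusted p = 0.319). Of 4 genes for the uptake of bound ligand, 0 were called. Of 9 genes for receptor cleavage 2 rose and 4 fell. The gamma-secretase genes Psen2 and Aph1c fell, Psen2 from 15.1 ± 3.11 to 4.22 ± 0.698 CPM (-1.82; edgeR, adjusted p = 4.4e-07) and Aph1c from 15.1 ± 2.55 to 6.17 ± 0.898 CPM (-1.29; edgeR, adjusted p = 3.64e-06), while Ncstn, another subunit, stood at 117 ± 3.8 and 113 ± 6.30 CPM (-0.05; edgeR, adjusted p = 0.516).

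In the nuclear complex and its corepressors 4 of 11 genes rose and 1 fell. Rbpj itself was at 38.2 ± 2.53 and 35.5 ± 5.26 CPM (-0.11; edgeR, adjusted p = 0.378). The Mastermind coactivator gene Maml2 rose from 28.8 ± 2.64 to 58.4 ± 2.12 CPM (1.02; edgeR, adjusted p = 2.12e-08), and of the Groucho corepressor genes Tle3 rose (0.54) and Tle2 fell (-0.39), while Maml1 (-0.17) and Spen (-0.26) did not pass. The Tle2 call was lost with the mesenchymal covariate (-0.34; edgeR, adjusted p = 0.0581) and the mesothelial one (-0.34; edgeR, adjusted p = 0.279), and the Tle3 call with the mesothelial one (0.38; edgeR, adjusted p = 0.161). With the endothelial covariate Spen (-0.59) and Maml1 (-0.39) were called lower by edgeR. Among inhibitors and turnover genes 4 of 8 rose and 2 fell. The ubiquitin ligase gene Fbxw7, which marks the cut receptor for destruction, rose (0.48), the Deltex gene Dtx4 fell (-0.66), and Numb (-0.05) and Itch (-0.11) did not pass. With the mesothelial covariate the calls of Fbxw7 (0.38; edgeR, adjusted p = 0.249) and Dtx4 (0.15; edgeR, adjusted p = 0.66) were lost.

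Of 8 other targets and relatives, 6 were tested, of which 1 rose and 2 fell. Rbpjl, a relative of Rbpj that does not bind the Notch receptor, fell from 134 ± 10.1 to 13.5 ± 0.912 CPM (-3.31; edgeR, adjusted p = 4.23e-13), the largest change in these lists. Hes6, which counters Hes1, fell from 97.7 ± 9.69 to 76.4 ± 5.01 CPM (-0.36; edgeR, adjusted p = 0.00114), a call lost with the endothelial covariate (-0.20; edgeR, adjusted p = 0.216) and the mesothelial covariate (-0.26; edgeR, adjusted p = 0.43). Hey2 rose at a low level, from 0.894 ± 0.475 to 1.99 ± 0.362 CPM (1.1; edgeR, adjusted p = 0.00804), and Heyl stood at 3.28 ± 1.93 and 5.55 ± 1.11 CPM (0.72; edgeR, adjusted p = 0.0665). Heyl was called higher under 6 of the 27 alternatives, and without Control library 6 its log2 fold change was 1.13 (edgeR, adjusted p = 0.000462). The Hey2 call was lost with mesenchymal markers as a covariate, where the log2 fold change was larger (1.31; edgeR, adjusted p = 0.0645), with mesothelial markers (0.53; edgeR, adjusted p = 0.739) and among libraries low in Y-linked transcripts (0.53; edgeR, adjusted p = 0.362). Hes5, the Notch target of neural progenitors, was below the filter with a mean of 0.15 CPM in Control and 0.103 CPM in the knockout.

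**Figure D5:**
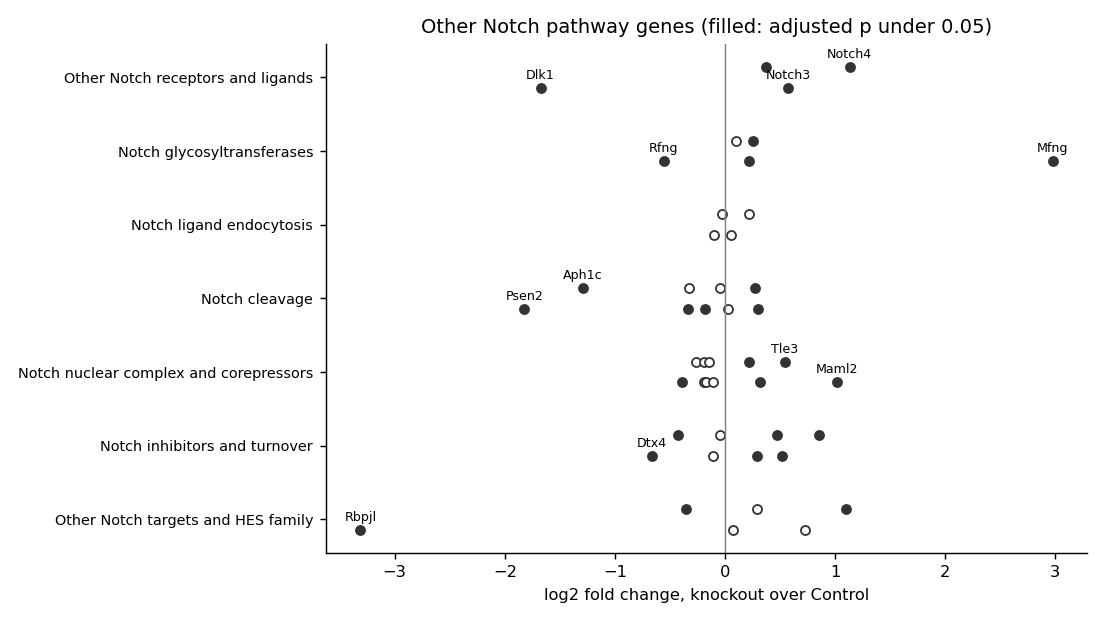
Log2 fold change of knockout over Control (horizontal axis) for the 47 tested genes of the 7 other pathway lists, 1 row a list. Filled points passed the adjusted p threshold of 0.05; Rbpjl (-3.31) and Mfng (2.98) lie at the far ends, and the 4 genes of ligand uptake lie near 0 and are open.

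Markers of other cells that the selection could carry over were read beside these genes, since Dll4, Notch1, Notch4 and Hey1 are known from endothelium and Notch3 from vessel walls. Of 15 endothelial markers, 13 of them tested, 6 rose and 1 fell, beside 21.1% higher and 21.8% lower over all genes tested. None of the 15 had a group mean of 0, and their summed level was 115 to 177 CPM in Control and 145 to 184 CPM in the knockout. Their mean log2 CPM, which gives each marker the same weight, was 1.6 to 2.2 in Control and 2.2 to 2.7 in the knockout, with the lowest knockout library just under the highest Control one. Pecam1 was at 5.28 ± 1.38 and 11.1 ± 2.34 CPM (1.07; edgeR, adjusted p = 0.000405), and Kdr, which alveolar epithelium is also known to express, fell (-1.23; edgeR, adjusted p = 2.39e-05). With the endothelial markers as a covariate the log2 fold change was 1.00 for Notch4 (edgeR, adjusted p = 0.0158), 2.95 for Mfng, 0.72 for Hey2 (edgeR, adjusted p = 0.327), 1.89 for Dll1, 3.50 for Dll3 and -0.89 for Nrarp. Of 15 mesenchymal markers, 14 of them tested, 8 rose and 0 fell, with summed levels of 512 to 838 and 796 to 1358 CPM. Of 8 mesothelial markers, 7 of them tested, 6 rose and 0 fell, at 1133 to 1613 and 1649 to 1935 CPM. Most of that mesothelial sum was the keratin gene Krt19, which was not called, at 1132 ± 145 and 1276 ± 63.5 CPM. Of 12 blood and immune markers, 7 of them tested, 2 rose and 0 fell, at 245 to 1219 and 449 to 792 CPM. Most of that blood and immune sum was Lyz1, which was not called, at 692 ± 325 and 491 ± 142 CPM. This list was not used as a covariate. With mesenchymal markers as a covariate Dll1 had a log2 fold change of 1.41, Dll3 of 4.06 and Nrarp of -0.94, all called by edgeR.

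For the gene of each role with the largest change, the genes with the most similar levels across the 11 libraries were found by the root mean square difference of log2 CPM, after subtracting each gene's own mean. For Dll3 these included St3gal4 (difference 0.22) and Chrm1 (0.24), which had log2 fold changes of 2.98 and 3.43. For Nrarp they were Dcxr (0.12), Pgm2 (0.14) and Fhdc1 (0.14), with log2 fold changes of -0.99, -0.98 and -0.94. For Notch2 they were Eif2ak3 (0.06), Tsc22d2 (0.08) and Rnf19b (0.09), none of which was called. The measure takes in the difference between the groups, so the log2 fold changes of the genes found follow in part from the choice.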

How the data were processed

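The authors deposited 1 table of whole-number counts per gene symbol for 11 libraries. Build mm10 and the tools HTSeq 2.0, Bowtie2 2.4.2, Picard 2.18.22, Trim Galore 0.4.2, DESeq2, SAMtools 1.10.0 and FastQC are listed, without roles, in the submitters' processing notes. Which annotation, strand setting and duplicate handling were used is not given in the sources used here. The 27 rows with date-like or repeated symbols were kept in library totals and none is named. Genes were filtered with filterByExpr, scaled by TMM and tested with edgeR 4.0.16 (R 4.3.3; robust quasi-likelihood, two-sided). The SE was obtained from the unshrunk coefficient and the root of its F statistic, and 95% intervals use t with 9 degrees of freedom. DESeq2 1.42.0 and limma-voom 3.58.1 were alternatives. Log2 CPM used a prior count of 2, and ratios 0.5 added to each count. Exon lengths and mm10 coordinates are from GENCODE M21, counted from 1. On simulated data with 13917 genes tested, edgeR called 22% of genes changed 1.25-fold, 74% changed 1.5-fold and 100% changed 2-fold. The simulation gave every gene the same dispersion, the setting for spread between libraries, and changed only genes above a floor on mean counts. It therefore does not cover genes of low counts or of wider spread.

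The members and lists were chosen with earlier results of these data known. Named genes were the 10 members, Prdm16, Mecom, Epcam, up to 12 called pathway genes by adjusted p and 6 abundant uncalled ones, leading markers of each cell type list, and the 3 most similar genes per role. Notch3, Hes6, Rbpj, Hey2, Heyl, Lfng, Hes5 and Neurod1 fall outside that rule and were chosen after their values were seen. Some genes the rule picks are not reported here. Alternatives were other scalings, filters and tests, a block, covariates, and libraries left out. The proliferation and mesothelial covariates were added after seeing the data.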

Additional observations from a re-analysis of the deposited data

Results flagged for a closer look

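Among 20 sets of values, the 10 genes in each group, 2 held a library far from the others; chance alone would give such a gap in about 1 set in 20. Dll4 stood at 28.9 CPM in Control library 6, against 13.9 to 19.5 CPM in the other 5. Nrarp stood at 77.7 CPM in Control library 4, against 54.2 to 62.0 CPM in the other 5.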

How the results depend on the processing

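Dll1, Dll3 and Nrarp were called in the same direction under all 27 alternatives, and Jag1 under 24 of them; Dll4, Jag2, Notch1, Notch2 and Hey1 were called under none, and Hes1 under 3. The number of members that rose was 2 to 3 and of members that fell 2 to 2 with 1 library left out. Members that fell numbered 1 with the endothelial covariate, 1 with the mesothelial covariate and 1 among the libraries low in Y-linked transcripts. With the endothelial covariate 1731 genes were higher and 1832 lower, and 10 pathway genes higher. With the mesenchymal covariate 1491 were higher and 1349 lower, and 6 pathway genes higher and 7 lower. Among low-Y libraries 1932 were higher and 1821 lower, and 10 pathway genes higher. Mesothelial marker levels did not overlap between the groups, so that covariate and the genotype can hardly be told apart; with it 1161 genes were higher and 1642 lower, 4 pathway genes were higher and 5 lower, and the sign turned, with no call left, for Dtx4 (0.15), Esam (-0.77), Pecam1 (-0.048) and Fn1 (-0.10), which had been called. Among members not called in either fit it also turned for Dll4 (0.68), Jag2 (-0.57), Notch1 (0.81) and Notch2 (-0.51). With library-size scaling alone 65.6% of calls were higher, against 49.2%. The cause of these shifts was not tested. The ratio of Dll4 to Jag1 was 0.11 to 0.39 with 1 library left out, and 0.45 and called without Control libraries 5 and 6. Replicate numbers gave little sign of pairing the libraries: correlations of same-numbered deviations ran from -0.0615 to 0.266, the highest for number 5. Low correlations cannot exclude a pairing, and the labels name no litter. With the replicate number as a block the members that rose and fell stayed 2 and 2 in number, and pathway genes were 18 and 12. For the ratios, signs permuted within the 5 pairs allow no p below 0.0625; the differences were 2.04 for Dll1 to Jag1, 0.34 for Jag2 to Jag1, 1.11 for Hes1 to Nrarp and 0.77 for Hey1 to Nrarp, none past the threshold in that block. Dll3 and Mfng in Control rest on few counts.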
